A study of Arabidopsis thaliana with 3 samples.

Results

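A CG dinucleotide pairs with a CG on the opposite strand, so each CG site is a dyad of a plus-strand cytosine and a minus-strand cytosine 1 base further on. Hemimethylated CG dyads were defined here as dyads with at least 10 calls on each strand, summed over all libraries, a level of at least 60% on 1 strand and a level of at most 20% on the other. Of 2577272 dyads with enough calls, 185 met this definition. The strand at 60% or more is called the methylated strand. Symmetric dyads stand beside them, with 631991 at 60% or more on both strands and 1826368 at 20% or less on both.

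Mature leaves of Arabidopsis thaliana Col-0 were profiled by whole-genome bisulfite sequencing (BS-seq), with 1 wild-type (WT) and 2 h3.3kd libraries. H3.3 is the histone H3 variant that is deposited outside of replication, and h3.3kd plants lack functional HTR4 and HTR8 through T-DNA insertions in both genes (double homozygous) and express an artificial microRNA against HTR5 from the HTR5 promoter, so that reduction of HTR5 is limited to where this promoter is active. The study took leaves of the transgenic lines h3.3kd-2 and h3.3kd-3, and the labels do not tell which line each replicate is. The methods call the h3.3kd samples biological replicates, so their spread may include a difference between lines. WT was not replicated, so replicate error can be read from the h3.3kd pair alone. The libraries held 839704204 (WT), 822515332 (h3.3kd 1) and 842326850 (h3.3kd 2) calls. DNA holds no transcript markers, so the tissue label could not be checked.

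Right after replication every methylated CG dyad is hemimethylated, since the new strand carries no methyl group. VIM proteins bind such dyads and MET1, the maintenance CG methyltransferase, methylates the new strand, while DDM1 remodels nucleosomes so that methyltransferases reach heterochromatin. In leaves, where most cells have left the cell cycle, a dyad is therefore usually methylated on both strands or on neither. Bisulfite converts unmethylated cytosine so that it is read as T, and each strand is read on its own, so C calls over C and T calls give a level per strand.

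Hemimethylated dyads were rare among methylated dyads. Of the dyads with at least 60% on 1 strand, 0.0280% had 20% or less on the other (185 dyads), 0.157% had between 20% and 40% (1039 dyads), 4.43% had between 40% and 60% (29269 dyads), and the remainder was higher. The members just inside the limits were at chr4:3969265-3969266 (60.1% and 19.6%) and chr4:2980886-2980887 (60.1% and 12.5%) for the upper limit, and at chr5:11971828-11971829 (20% on the other strand) and chr5:14830170-14830171 (20%) for the lower limit. Just outside were chr4:2445411-2445412 with 59.9%, chr1:19706013-19706014 with 59.1%, chr5:11734031-11734032 with 20.2% on the lower strand and chr5:11961086-11961087 with 20.3%. These values chose the members and are a description.

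By their sequence, most of the 185 fell into a pair of groups, which were set up after the values had been seen. A total of 113 lay in 1 repeat family, joined by matches of at least 100 bases and 70% identity between 402-base windows. In 100 of these the surrounding sequence matched itself best at an offset of 178 bp, the repeat unit of the centromeric satellite arrays of Arabidopsis. A further 44 had at least 75% A and G among the 48 other bases of the 50-base window on the methylated strand (purine-rich dyads). The remaining 28 are called other dyads.

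The satellite sequences are shown because the methylated cytosine sat at the same places of the repeat again and again. Each line gives 14 bases on either side of the dyad on the methylated strand, 5′ to 3′, with the CG of the dyad in capitals (TAIR10 coordinates).
chr5:11665469-11665470, plus strand: tttgatggtgtagcCGaagtccgtataagt
chr4:2980893-2980894, minus strand: tttgatggtgtagcCGaagtccgaatgagt
chr1:17490731-17490732, plus strand: tttgatggtgtaacCGaagtccgtatgagt
chr1:17490738-17490739, plus strand: gtgtaaccgaagtcCGtatgagtctttggt
chr4:2959977-2959978, minus strand: gtgtagccgaagtcCGtatgagtctttggc
The first 3 show the dyad with A after its CG and the last 2 the dyad 7 bp further on, with T after its CG. At both chr1 dyads the surrounding sequence matched itself best at an offset of 285 bp, unlike in most of the family.

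The purine-rich sequences are shown because the 2 strands of these dyads differ so much in base composition, with nearly all A and G on the methylated strand and hence T and C on the other.
chr1:22698909-22698910, plus strand: cgagagagaggaagCGagagagggagagag
chr4:5570466-5570467, plus strand: gaaagagaaggaccCGaaagagaaagagaa
chr2:1762645-1762646, plus strand: gaaagagagaagaaCGagagagagagagaa
chr5:18197036-18197037, plus strand: aagaagaagaagatCGaggaagaagaagaa
chr5:26858272-26858273, plus strand: gagagaagatagaaCGagaaaaggaacggg
Of the other dyads, the following were not purine-rich on the methylated strand. They contrast an AT-rich site with an intron site. At the AT-rich site A and G made up 20.8% of the window on the methylated strand, so the other strand was purine-rich.
chr1:883602-883603, plus strand: atttatttttttatCGtatttattttaatt
chr2:1010952-1010953, minus strand: ttccgtcgactgaaCGagagaagagagcga

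Place in the genome was not used by the definition. In the TAIR10.1 annotation, 159 of 185 (85.9%) lay outside genes, against 28.1% of all dyads with enough calls and 35.2% of symmetric methylated dyads. Another 9 (4.86%) lay in pseudogenes, which took 27.6% of symmetric methylated dyads. Protein-coding genes held 17, or 9.19% (95% Wilson interval 5.82 to 14.2), against 62.4% of all dyads and 36.3% of symmetric methylated dyads. Of these 17, 9 were in coding sequence, 4 in introns, 4 in 3′ UTRs and 0 in 5′ UTRs. Windows of 100 kb with a CHG level of at least 20%, which mark heterochromatin wherever it lies, held 147 members (79.5%), against 14.3% of all and 48% of symmetric methylated dyads. By sequence group these windows held 111 of 113 satellite, 21 of 44 purine-rich and 15 of 28 other dyads, so the excess lay mostly in the satellite family. Wilson intervals cover counting error only, and neighbouring dyads share reads. The share in protein-coding genes was 20.1% when dyads were chosen without h3.3kd 1, 17.0% without h3.3kd 2 and 12.1% without WT, 14.7% without dyads over 2 times the median depth and 15.3% without the satellite family.

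**Figure D1:**
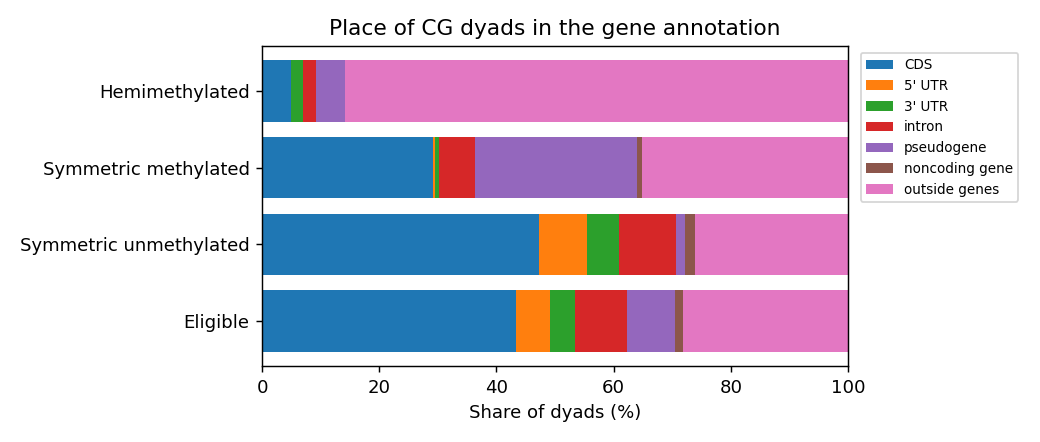
Share of CG dyads (x axis, %) in each class of the gene annotation for dyads with enough calls, symmetric and hemimethylated dyads (bars). Hemimethylated dyads were outside genes in 85.9% of cases, against 35.2% of symmetric methylated dyads.

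The methylated cytosine was on the sense strand in 8 of the 17 genic dyads (47.1%, interval 26.2 to 69.0) and on the antisense strand in 9. Without the satellite family it was on the sense strand in 8 of 11 (72.7%, interval 43.4 to 90.2). Several of the 17 lie within 13 bp of another in AT4G05612, AT1G52905 and AT2G03330 and can share reads, so these counts are not independent. On the chromosomes, 84 members were methylated on the plus strand and 101 on the minus strand.

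The 17 genic members lay in 10 genes, most of which the annotation gives no function. AT4G05612 (chr4:2959094-2963744) held 4, all satellite dyads in annotated coding sequence. AT1G52905 (chr1:19706047-19706885) held 3, all in its 3′ UTR within 12 bp and with 36 to 65 calls on the methylated strand. AT2G03330 and AT2G08986 held 2 each. AT2G11570, AT2G01008, AT2G07565, AT5G53110 and AT5G54700 held 1 each. The last of the 10, AT5G67320 (HOS15, a WD-40 repeat protein that acts in histone deacetylation), held the purine-rich coding dyad at chr5:26858272-26858273 shown above. That dyad was at 87.2% of 47 calls (WT), 96.9% of 32 (h3.3kd 1) and 91.4% of 35 (h3.3kd 2) on the methylated strand. Its other strand was covered by 7, 7 and 6 calls, of which 0, 1 and 1 were C. A count of 0 of 7 allows a level of up to 42.9%, so the other strand is known only coarsely.

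No dyad in the genes of the methylation machinery met the definition. This list held MET1, VIM1, VIM2, VIM3 and DDM1 (maintenance), CMT3, CMT2, DRM1, DRM2 and KYP (non-CG and de novo methylation), ROS1, DME, DML2 and DML3 (DNA demethylases), IBM1 (an H3K9 demethylase) and the H3.3 genes HTR4, HTR5 and HTR8. Of their 1759 dyads with enough calls, 250 were symmetric methylated and 0 met the definition, which allows a share of up to 0.171%. With 185 members among 2577272 dyads in all, a count of 0 here is not a result about these genes. The largest strand difference in the list was 27.6 points, in DME.

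Weighted levels (all C calls over all calls) of the methylated strand were 71.8% (WT), 72.7% (h3.3kd 1) and 72.1% (h3.3kd 2), and those of the other strand 10.4%, 10.4% and 10.2%. Deep dyads weigh most in these levels, as members had a median of 64 and up to 5143 calls on the methylated strand. The mean over the 177 dyads with at least 4 calls there in every library was 81%, 79.95% and 80.7%. Symmetric methylated dyads were at 88.1%, 87.0% and 86.4% on the plus strand and at 88.1%, 87.0% and 86.5% on the minus strand. Over single members, the methylated strand ranged from 50% to 100% in WT with a median of 83.9%, from 25% to 100% in h3.3kd 1 (median 81.2%), and for h3.3kd 2 from 50% to 100% (median 81.0%). The other strand ranged from 0% to 100% in WT, to 33.3% in h3.3kd 1 and to 28.6% in h3.3kd 2, with a median of 10.3% in each library. The 100% was that of 1 call at chr5:22223380-22223381, so the strands of single members can overlap where calls are few. The pooled limits were met within each library by 121 members, in 2 libraries by 44, in 1 by 18 and in 0 by 2. The members were chosen on these same calls, so that the levels describe the choice.

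**Figure D2:**
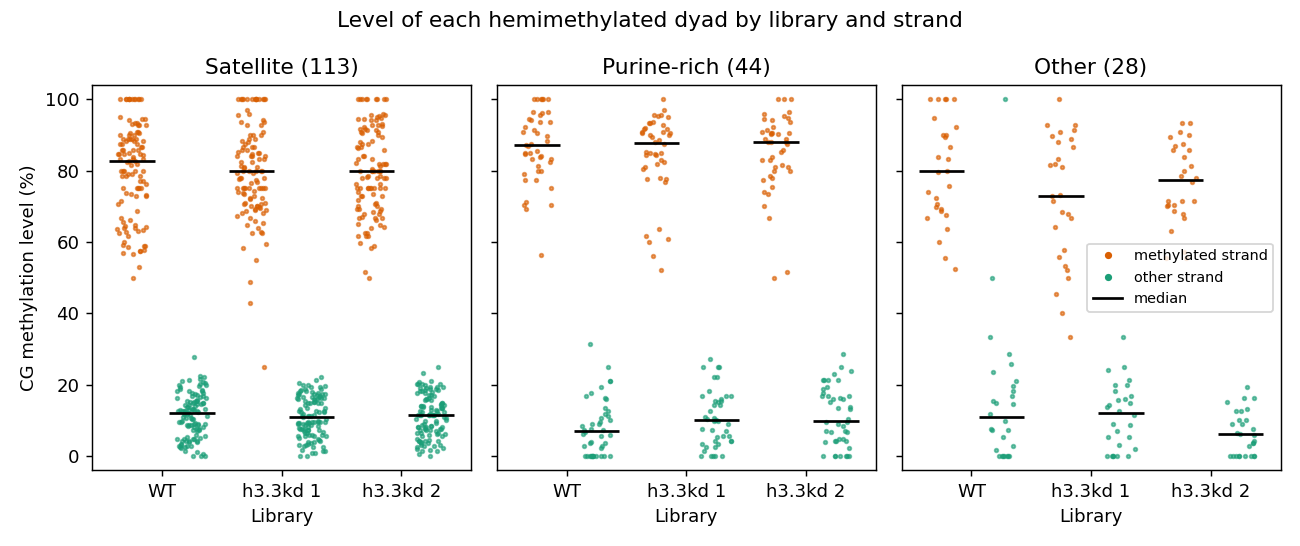
CG methylation level (y axis, %) of each hemimethylated dyad in WT, h3.3kd 1 and h3.3kd 2 (x axis) on the methylated strand (orange) and the other strand (green), for satellite, purine-rich and other dyads, with black bars for medians. The pooled levels chose the dyads. Medians of the purine-rich dyads on the methylated strand were 87.1%, 87.8% and 87.9%.

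A library left out of the choice gave a reading that the choice had not used. All libraries were mapped to the same reference with the same program, so this reading shows how far the calls repeat. Neighbouring dyads share reads, so the intervals cover counting error only. When dyads were chosen on both h3.3kd libraries, 199 met the definition and 155 of them had at least 10 calls on each strand in WT. Of these, 112 (72.3%, interval 64.7 to 78.7) met the level limits in WT on the same strand, against 0.0145% of all 2103878 dyads with that depth in WT. With h3.3kd 1 left out, 112 of 162 (69.1%, interval 61.7 to 75.7) met them there, against 0.0133% of all. With h3.3kd 2 left out, 125 of 185 (67.6%, interval 60.5 to 73.9) did, again against 0.0133%. The methylated strand chosen was the higher one in 153 of 155, 148 of 162 and 166 of 185 dyads. In WT the mean level of the dyads chosen without it was 78.7% on the methylated strand and 14.1% on the other.

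Two-sided Fisher's exact tests between strands in the library left out called 110 of 155 (71%) when WT was left out, 99 of 162 (61.1%) for h3.3kd 1 and 121 of 185 (65.4%) for h3.3kd 2, at an adjusted p under 0.01 by the Benjamini-Hochberg method over all dyads tested and with at least 40 points in the same direction. Over all dyads the calls made up 0.0107%, 0.0087% and 0.00928%. These tests compare the strands of 1 library, and reads of repeated sequence are counted where they were placed.

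Read in 1 library alone, the limits picked many dyads that the other libraries did not share. Among 1916471 dyads with at least 10 calls per strand in every library, 250 met the limits in WT, 237 did so in h3.3kd 1 and 231 did in h3.3kd 2. All 3 libraries shared 88 on the same strand, while the numbers confined to 1 of these libraries were 146 (WT), 126 (h3.3kd 1) and 120 (h3.3kd 2).

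The satellite dyads stood apart by depth and by the strand of the repeat. Counted over all libraries, the median was 53 calls on the methylated strand and 680 on the other, which was over 2 times as deep in 102 of 113 and over 5 times in 82. Among all dyads with enough calls, 16.0% had strands that differed over 2 times (21.2% of symmetric methylated dyads) and 0.763% had strands that differed over 5 times. For satellite dyads the sum over both strands exceeded 2 times the median of 122 calls in 100 of 113, against 0.273% of all dyads. In 103 of the 113 the methylated cytosine was on the same strand of the repeat unit, and in 10 on the opposite strand. On the methylated strand the dyad was read as CCGA in 44 and CCGT in 45. In 44 the nearest other member was 7 bp away, always methylated on the same strand.

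**Figure D3:**
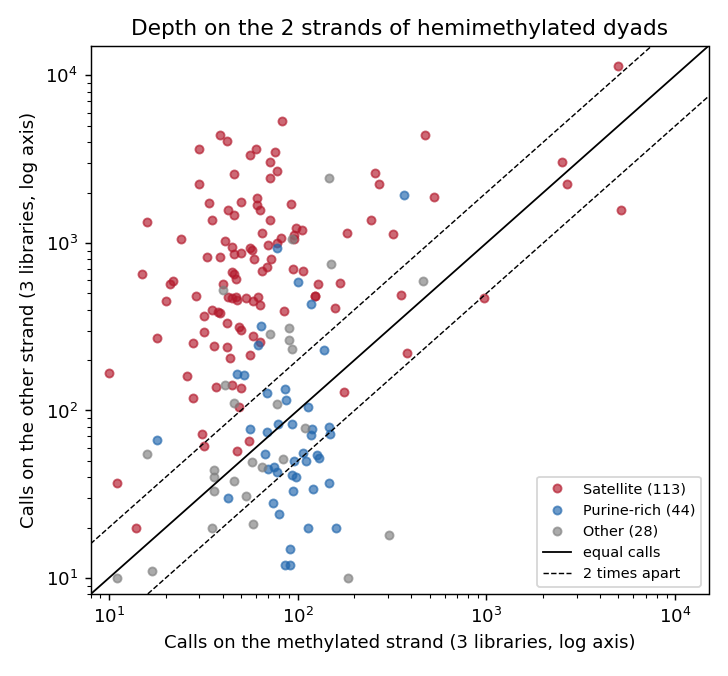
Calls on the other strand against calls on the methylated strand of each hemimethylated dyad (both log axes, sum of 3 libraries), by sequence group, with lines for equal calls and for 2 times apart. Most satellite dyads lie above the upper line, with medians of 53 and 680 calls, while purine-rich dyads have medians of 92 and 61.5.

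The satellite dyad at chr1:17490731-17490732 shows the imbalance. Its methylated strand was at 90.5% of 21 calls (WT), 81.2% of 16 (h3.3kd 1) and 95.7% of 23 (h3.3kd 2). Its other strand was at 2.40% of 1291 calls, 1.37% of 1237 and 1.26% of 1107. The other strand was the far deeper one in all libraries. The levels of the strands did not overlap, which the rule that named this dyad required. At chr4:2980893-2980894 the methylated strand was at 88.2%, 83.3% and 91.3% (34, 48 and 46 calls) and the other at 0.538%, 1.62% and 2.01% (186, 185 and 199 calls). At chr5:11665469-11665470, in the pseudogene AT5G31702, they were at 92.9%, 100% and 90.9% and at 9.77%, 4.76% and 8.46%. In the gene AT4G05612, chr4:2959977-2959978 was at 72.7%, 73.3% and 61.5% and at 15.4%, 20% and 17.2%.

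Most copies of the same satellite word were not hemimethylated. The word gaagtcCGtatgag occurred 436 times in the reference, of which 157 had enough calls on both strands. Of these, 18 were members on this strand, 1 was a member on the opposite strand, and 87 were symmetric methylated. Over the 157, the median level was 85.7% on the strand of the word and 66.7% on the opposite strand, with medians of 42 and 96 calls. The word strand was at least 20 points higher in 76 and at least 20 points lower in 2. For the word 7 bp upstream, tgtagcCGaagtcc, 17 of 86 were members, 33 were symmetric methylated, and the medians were 87.0% and 52.3%. The words were taken from the members, so that the counts of members are a description.

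Many near copies of the satellite windows lacked the dyad. In BS-seq a T in a copy is read like a converted cytosine, so the base at the dyad in the copies bears on what the calls mean. Over the members, blastn found 63067 matches of at least 45 bases and 90% identity to their 50-base windows elsewhere in the reference, with copies shared by several members counted each time. On the methylated strand the dyad was CG in 36713 of them, CA in 17079 and TG in 3002. A CA here means a T in place of the cytosine on the other strand, and a TG a T in place of the methylated cytosine. At least 1 CA copy was found for 110 of 113 satellite dyads, 3 of 44 purine-rich dyads and 14 of 28 other dyads. Windows that were identical after conversion of every C to T, with a T at the dyad's cytosine, existed for the other strand of 34 members and for the methylated strand of 16. On either strand they existed for 42 members (22.7%), against 0.567% of all dyads with enough calls and 1.95% of symmetric methylated dyads. Of all dyads with such a copy for 1 strand only, 34 of 13557 were hemimethylated, and in 26 of the 34 the copy was that of the other strand. Over all 13557 the strand with such a copy was little lower, with a median level of 87.5% against 88.1% on the opposite strand and weighted levels of 69.7% and 71.9%. The part of such copies in the levels was not tested, as read placements are not in the files used here.

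Repeated windows were frequent in all groups. After conversion, the 50-base window of either strand recurred in the reference for 87 of 185 members (47.0%), against 3.01% of all and 9.28% of symmetric methylated dyads. It recurred for the other strand alone in 47 and for the methylated strand alone in 11.

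Purine-rich dyads have the methylated cytosine on the A and G strand by their definition, so members were also counted with either strand purine-rich. At least 75% A and G on either strand was found for 45 members (24.3%), against 2.31% of all and 1.47% of symmetric methylated dyads, and in 44 of the 45 the purine-rich strand was the methylated one. The exception was the AT-rich dyad chr1:883602-883603, with 20.8% A and G on its methylated strand. Depth of the 44 purine-rich dyads was more even than in the satellite, with medians of 92 calls on the methylated strand and 61.5 on the other. Of these 44, 19 had strands within 2 times of each other. In 16 the methylated strand was over 2 times deeper and in 9 the other strand was, while strands differed over 2 times in 16.0% of all dyads with enough calls. The median purine share was 91.7%, and the median number of other cytosines in the window was 1 on the methylated strand and 17 on the other strand.

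Among all methylated dyads, the pyrimidine strand was lower than the purine strand where the sequence was most purine-rich, and this held for dyads that were not members. Among dyads with at least 60% on 1 strand, the weighted level was 85.7% on the purine-richer strand and 85.9% on the other where the purine share was 50 to 60%. At a purine share of 75 to 90% (9828 dyads) the levels were 86.0% and 83.4%. At 90% or more (123 dyads) they were 86.0% and 40.4%, and 23 of the 123 (18.7%) were hemimethylated, all with the purine strand methylated. The purine strand was at least 20 points higher in 79 of the 123, and the pyrimidine strand in 0. Without the members, 100 dyads remained in this class, at 86.1% and 60.2%, and the purine strand was at least 20 points higher in 56 of them. In the libraries the pyrimidine strand was at 40.4% (WT), 40.6% (h3.3kd 1) and 40.2% (h3.3kd 2). Median depth moved along, from 61 and 55 calls in the lowest class to 91 on the purine strand and 30 on the pyrimidine strand in the highest. The part of depth and read placement in this was not tested.

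**Figure D4:**
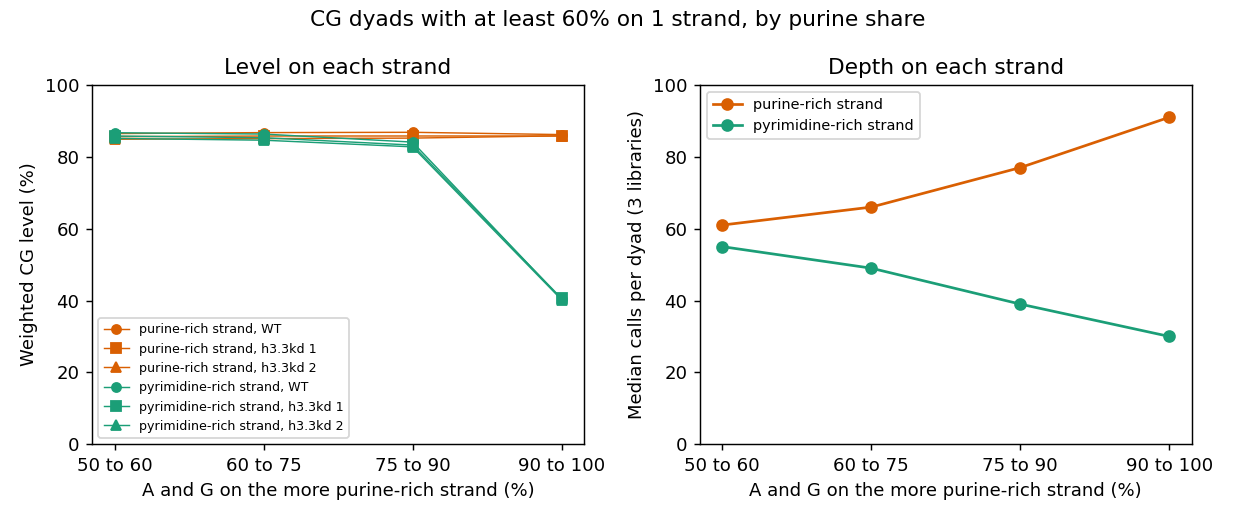
Left, weighted CG level (y axis, %) of CG dyads with at least 60% on 1 strand on the purine-richer and the pyrimidine-richer strand in WT, h3.3kd 1 and h3.3kd 2, by the share of A and G on the purine-richer strand (x axis, %). Right, median calls per dyad on each strand, summed over 3 libraries. In the highest class (123 dyads) the pyrimidine-rich strand was at 40.4% and had 30 calls.

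The purine-rich dyads given next were named because they met the limits in each library, so their strands cannot overlap. Of all 44 purine-rich dyads, 30 met the limits in all 3 libraries. At chr1:22698909-22698910, 806 bp from AT1G61520 (a chlorophyll a/b-binding protein of photosystem I), the methylated strand was at 96.5%, 95.5% and 94.7% in WT, h3.3kd 1 and h3.3kd 2 (29, 22 and 19 calls) and the other at 0%, 10% and 0% (12, 10 and 23 calls, of which a count of 0 allows up to 25% in WT and 13.0% in h3.3kd 2). After conversion, the 50-base window of the other strand at chr1:22698909-22698910 occurred 4 times in the reference, of which 1 had a T at the dyad's cytosine. At chr4:5570466-5570467 in the pseudogene AT4G08710 the methylated strand was at 90.5%, 93.3% and 92.2% (42, 45 and 51 calls), with 3.70%, 1.37% and 9.09% on the other strand (81, 73 and 77 calls). At chr4:9956379-9956380 the levels were 84.9%, 84.4% and 87.9% against 2.84%, 3.45% and 4.14%. In coding sequence of AT2G07565, chr2:3188257-3188258 was at 82.5%, 88% and 94.3% against 8.33%, 16% and 9.42%, and 2 near copies of its window lay in an organelle genome.

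The other 28 dyads were mixed in sequence, depth and place. Of these, 14 had strands within 2 times of each other in depth. In the intron of AT2G03330, chr2:1010952-1010953 was at 100%, 91.3% and 89.3% (27, 23 and 28 calls) against 11.9%, 15.6% and 2.86% (42, 32 and 35 calls), the largest such difference among genic members by the lowest of the 3 libraries. After conversion, the 50-base window of its other strand occurred 2 times in the reference. This dyad and chr2:2624-2625 each had a cytosine listed on more than 1 line of the deposited data, whose counts were summed. In the 3′ UTR of AT2G01008, near the end of chromosome 2, chr2:2624-2625 was at 69.8%, 67.9% and 70.2% against 2.93%, 3.12% and 3.64%, with 43, 56 and 47 calls on the methylated strand and 887, 801 and 741 on the other. The AT-rich dyad chr1:883602-883603, which lay 3 bp from AT1G03530, was at 67.7%, 68.4% and 70.3% against 9.68%, 0% and 0%, with 23 to 38 calls on every strand, so that the values of 0 allow up to 12% and 13.0%.

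Of all 185, 16 had no repeated window, strands within 2 times of each other and no excess depth. This filter was added after the values were seen. It left 14 purine-rich, 2 other and 0 satellite dyads. Each filter alone left more, with 98 dyads having no repeated window, 42 having strands within 2 times and 68 having no excess depth. With limits of 80% and 10% in place of 60% and 20%, 50 dyads met the definition. The 2 others under the joint filter were the AT-rich dyad above and chr5:22223380-22223381, with 11 and 10 calls.

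Around the members, median levels of neighbouring cytosines were higher on the strand methylated in the member, by amounts that differed between contexts and sequence groups. Over all CG cytosines within 50 bp, other members included, the median level was 86.6% on the methylated strand and 25.03% on the other, and it was 85% and 15.6% around satellite dyads. Dyads with enough calls within 50 bp that were not members themselves, and so by definition not hemimethylated, numbered 128, of which 76 were symmetric methylated and 2 symmetric unmethylated. The strand methylated in the member was at least 20 points higher in 45 of the 128 and at least 20 points lower in 4. The medians were 87.5% on that strand and 74.8% on the other. Of these neighbours, those of satellite dyads were at 82.6% and 59.8%, and those of purine-rich dyads at 91.9% and 83.0%. For CHG, which CMT3 methylates, the median level within 50 bp was 19.6% and 19.2% on the methylated and other strands of satellite dyads and 44.9% and 31.8% at purine-rich dyads. The satellite medians came from 106 and 37 dyads with CHG calls on that strand, and the purine-rich medians from 19 and 23. Weighted CHG levels went the other way around satellite dyads (20.7% and 27.6%) and other dyads (19.4% and 20.6%). Around purine-rich dyads they were 41.5% and 30.2%. For CHH, the context of CMT2 and DRM2, the median was 7.84% and 5.81% in the satellite, and 11.8% and 1.56% around purine-rich dyads (30 and 44 dyads with CHH calls). Weighted CHH levels were 6.77% and 5.63% around satellite dyads, 13.7% and 2.95% around purine-rich dyads and 6.93% and 5.14% around other dyads. Around symmetric methylated dyads the weighted CHG level was 24.2% (plus) and 24.1% (minus) and that of CHH 6.29% and 6.28%.

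**Figure D5:**
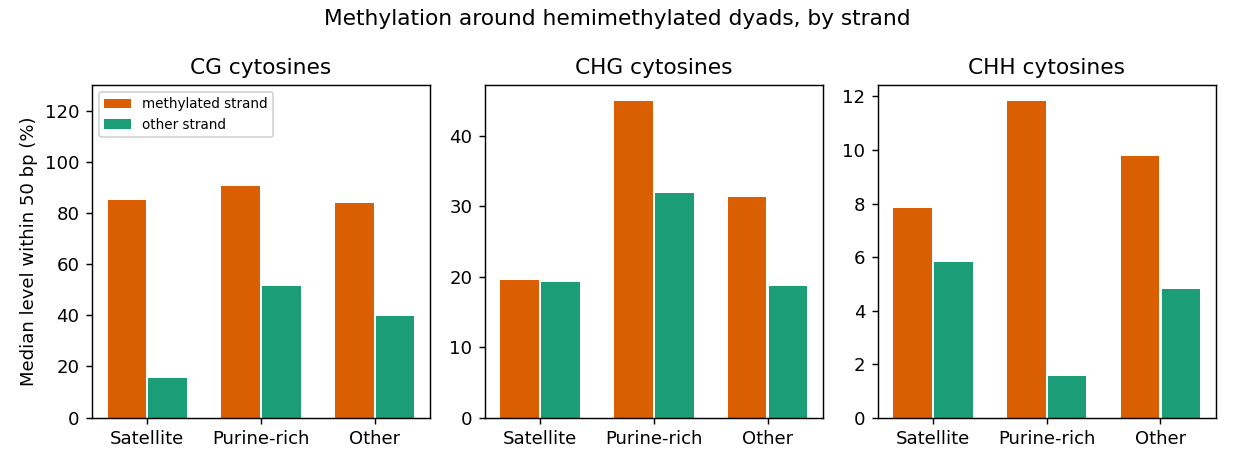
Median level (y axis, %) of CG, CHG and CHH cytosines within 50 bp of hemimethylated dyads, the dyad left out and other members included, on the methylated and the other strand by sequence group. CHH around purine-rich dyads was at 11.8% and 1.56%, and around satellite dyads at 7.84% and 5.81%.

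Between WT and h3.3kd the levels of the members differed little, with no direction that held. The mean h3.3kd level minus WT was 0.65 points on the methylated strand (SD of the h3.3kd libraries 0.375, n = 2) and -0.00589 points on the other (SD 0.134, n = 2). The sign on the methylated strand depended on the measure, as the mean over dyads with at least 4 calls gave -0.657 points, without the satellite family the weighted difference was -2.16, and with members chosen and read without h3.3kd 1 it was -2.21 (without h3.3kd 2, -0.576). Symmetric methylated dyads were 1.38 points lower on either strand (h3.3kd minus WT of -1.38 on both, SD 0.379 and 0.371). With 1 library against 2, an exact permutation test cannot go below p = 0.333, and no other test of these mean differences was run.

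None of the 147 methylated-strand cytosines covered by 10 or more calls in each library was called lower or higher in h3.3kd by Fisher's exact tests of each h3.3kd library against WT (Benjamini-Hochberg adjusted p under 0.01 over all CG cytosines and at least 20 points in both). Of all 4464925 cytosines tested, 1.07% were called lower and 0.608% higher. The methylated strands were chosen for a high level over all libraries, so cytosines far lower in h3.3kd tended to be left out. Symmetric methylated dyads were chosen for a high level in the same way. Of their 1003717 cytosines tested, 0.028% were called lower and 0.577% higher. With shares this low, 0 of 147 does not tell whether members differ from other highly methylated cytosines. The other strand of the members also gave 0 calls, of 161 tested. At an unadjusted p under 0.05 in both libraries, 2 methylated-strand cytosines were lower and 1 was higher. At least 20 points lower in both were chr1:14484290-14484291 (-38.0 and -20 points) and chr3:13795513-13795514 (-38.7 and -39.4), and higher was chr5:11665485-11665486 (35.3 and 22.0). None of these dyads had an adjusted p under 0.01 in either library. The median methylated-strand cytosine had 21 to 22 calls per library, a depth at which these tests detect only large differences. Some members were far deeper. At chr5:11732418-11732419 the methylated strand was at 63.4% of 1848 calls (WT), 69.95% of 1604 (h3.3kd 1) and 64.9% of 1544 (h3.3kd 2), and the difference of 6.58 points in h3.3kd 1 (Fisher's exact test, Benjamini-Hochberg adjusted p = 0.00217) was below the limit of 20 points, while in h3.3kd 2 it was 1.53 points (adjusted p = 1).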

How the data were processed

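Bisulfite-converted leaf DNA of 1 WT and 2 h3.3kd samples was sequenced. Groups followed the genotype in the labels. Per the methods of the study, the authors collapsed identical reads, mapped them to TAIR10 with BS Seeker and deposited, for each cytosine of chromosomes 1 to 5, the count of C calls and the count of T calls, not normalized. How reads with several placements were treated is not given in the sources used here. Counts of a position on more than 1 line (1.23% to 1.25% of positions) were summed. Totals ranged from 822515332 to 842326850 calls.

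All listed positions were cytosines of the stated strand in the TAIR10.1 assembly, whose RefSeq annotation gave features. Levels were C over C and T calls, with 95% Wilson intervals for shares. Near copies were found with BLAST+ 2.17.0. Recurring 50-base windows were counted after C to T conversion, organelles included. Fisher's exact tests (Numba 0.67.0, checked against SciPy 1.17.1) and the selection were tested on simulated data. Python 3.11.15, NumPy 2.4.6, pandas 2.3.3 and Matplotlib 3.10.9 were used.

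Members, gene list and rules were chosen with earlier results of these data known. The rule named the 6 genic dyads and the 6 others with the largest strand difference in their lowest library, of those with 10 calls per strand and meeting the limits in every library, no 2 within 1 kb. It found 4 genic dyads. It also named the dyads nearest the limits and the 10 genes with the most members. Dyads outside it were named after their values were seen, as were the sequence groups. Alternatives changed the depth, level limits, repeats, lines, libraries and averaging.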

Additional observations from a re-analysis of the deposited data

How the results depend on the processing

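Against 185 members, there were 50 with limits of 80% and 10%, 68 without dyads over 2 times the median depth and 98 without repeated windows. Among settings added after seeing the data, there were 72 without the satellite family, 42 without dyads whose strands differed over 2 times in depth, and 16 with the filters on repeats, strand balance and depth together. Leaving out 1 library gave 199 to 218. The share in protein-coding genes (9.19%) was 14.7% without excess depth, 15.3% without the satellite family, 16.7% with balanced strands, and 12.1% to 20.1% with 1 library left out. The share on the sense strand (47.1%) was 72.7% without the satellite family and 0% of 1 dyad under the filters together. It was 50% to 56.8% with 1 library left out. On the methylated strand, h3.3kd minus WT (0.65 points) was 1.14 with 10 calls per strand in every library, -0.955 with limits of 80% and 10%, -2.58 without excess depth, -0.657 as a mean over dyads, -2.16 without the satellite family, 1.36 without purine-rich dyads, -0.339 with balanced strands, -3.43 under the filters together, and -2.21 to -0.576 with 1 h3.3kd library left out. On the other strand (-0.00589 points) it was -0.375 without excess depth, -0.407 with balanced strands and -0.901 under the filters together, and -0.128 to 0.0381 with 1 h3.3kd library left out. The cause of these moves was not tested. The 0 calls between WT and h3.3kd stayed 0 under every alternative tried. The share of dyads chosen on other libraries that met the limits (69.5% over the 3 turns) stayed between 65.7% and 67.6%. No paired analysis was possible because WT has 1 library. Pooled calls of 10 to 20 per strand leave wide errors on single dyads.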
